A study of Mus musculus with 4 samples.

Results

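Genes of FGF, RAS and MAPK signalling were followed through 4 RNA libraries of mouse blastocysts. The members are 37 gene names chosen by their role in the pathway, of which 36 were found by name among the 53715 genes of the deposited table. The name Rsk1 matched no gene. That kinase is listed under its symbol Rps6ka1 and is given below among the other genes of the pathway. All embryos were C57BL/6, were taken as zygotes from the oviduct and grew in KSOM, a culture medium for embryos. Those of the treated libraries received α-ketoglutarate (α-KG) at 0.15 mM or 2-hydroxyglutarate (2-HG) at 0.3 mM from the stage with 2 pronuclei. Each compound has its own negative control library, so the 4 groups are the α-KG control, α-KG, the 2-HG control and 2-HG. Every group is 1 library, which leaves no replicate, no test and no error on any value below. How many embryos went into a library is not given in the sources used here.

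FGF4 is the ligand by which the epiblast of the blastocyst signals to neighbouring cells of the inner cell mass and to the trophectoderm. It binds FGF receptors, whose adaptors recruit SOS to load RAS with GTP, and RAS then drives the kinase chain RAF, MEK and ERK. In the mouse blastocyst this route directs inner cells toward primitive endoderm. The p38 and JNK kinases form parallel MAPK branches, and dual-specificity phosphatases, Sprouty and SPRED proteins act as feedback inhibitors of the chain.

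Levels are in TPM, transcript abundances scaled by gene length to a common total per library. Markers of the blastocyst were present, with 9 of 10 trophectoderm markers and 5 of 8 epiblast markers at 5 TPM or more in all 4 libraries. Of 8 primitive endoderm markers 2 reached this level in all 4 libraries, Dab2 at 295 to 420 TPM and Gata6 at 161 to 212 TPM. Pdgfra and Cubn lay between 3.10 and 7.84 TPM, and Gata4, Sox17, Sox7 and Foxa2 stayed under 2 TPM. No marker of cumulus and granulosa cells, oviduct epithelium, blood or oocytes reached 5 TPM in any of the 4 libraries. The highest was the oocyte marker Gdf9, at 4.75 TPM with 2-HG and between 0 and 1.34 TPM in the other libraries. Of the 7 cumulus and granulosa markers 5 were listed at 0 throughout, among them Fshr and Amh. Between 9062 and 9417 genes per library were at 5 TPM or more. In a bulk library, fewer cells of a type and less RNA per cell cannot be told apart.

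Of the 36 members, 23 were at 5 TPM or more in all 4 libraries, 7 in some of them and 6 in none. The RAS-RAF-MEK-ERK, adaptor and p38-JNK genes had no member under 5 TPM throughout, whereas 4 of 10 feedback and target genes and 2 of 5 ligand and receptor genes did. Map2k4 was the highest member, at a mean of 137 TPM over the libraries, followed by Map2k2 at 76.3 TPM and Araf at 54.2 TPM. For the 30 members at 5 TPM or more in at least 1 library, the median span between the lowest and the highest library was 0.72 on the log2(TPM + 1) scale, beside 0.63 for all 10420 such genes. A span of at least 1 was seen in 11 of the 30, or 36.7%, against 23.8% of all genes. For the other pathway genes given below, the median span was 0.62, and 4 of 37, or 10.8%, had a span of at least 1.

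**Figure D1:**
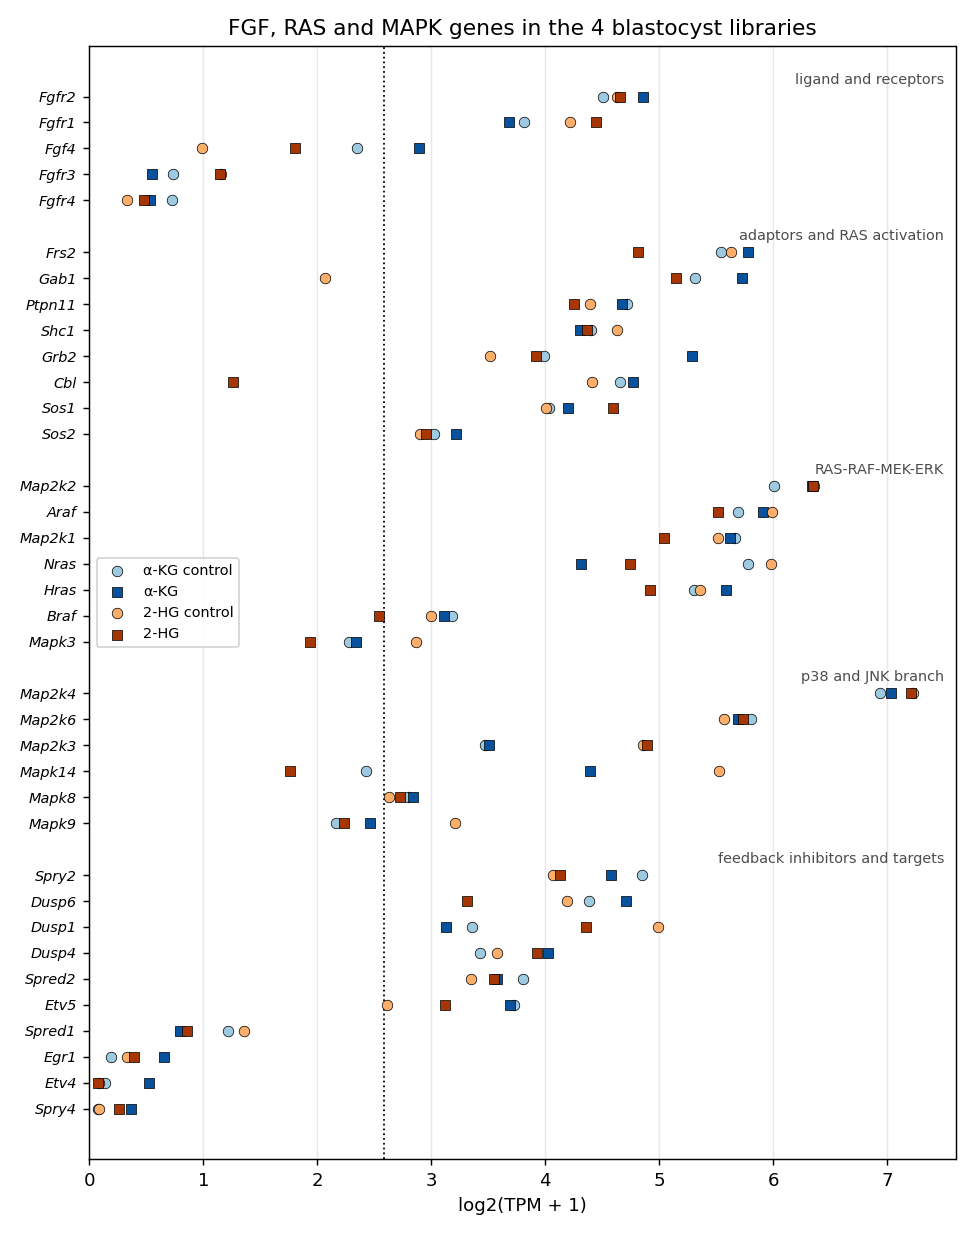
Level of each of the 36 members on a log2(TPM + 1) axis, by role, with 1 point per library (circles for controls, squares for treated) and a dotted line at 5 TPM. Most members sit close together in the 4 libraries, while Gab1, Cbl and Mapk14 each spread over more than 3 units.

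Comparisons between 2 libraries use the difference of log2(TPM + 1) for genes with at least 5 TPM in 1 of them, and a difference of at least 1, here called the 2-fold rule, marks a gene as apart. With α-KG, 3 of 28 members measured were apart from the control. Grb2 and Mapk14 were higher and Nras was lower. Over all genes 7.31% were apart in that comparison, 4.21% higher and 3.10% lower. With 2-HG, 4 of 29 members were apart from its control, with Gab1 higher and Cbl, Nras and Mapk14 lower. The background there was 8.01%, made of 2.36% higher and 5.65% lower. Between the controls, neither of which was treated, 6 of 29 members were apart, and the background was 8.86%. Gab1 and Etv5 were lower in the 2-HG control, and Mapk14, Mapk9, Map2k3 and Dusp1 were higher. Of all genes 5.99% were higher and 2.87% lower in that comparison. The median difference of the members was 0.11 with α-KG, -0.02 with 2-HG and 0.06 between the controls, beside 0.05, -0.12 and 0.09 for all genes measured. These comparisons share control libraries and are not independent of each other.

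**Figure D2:**
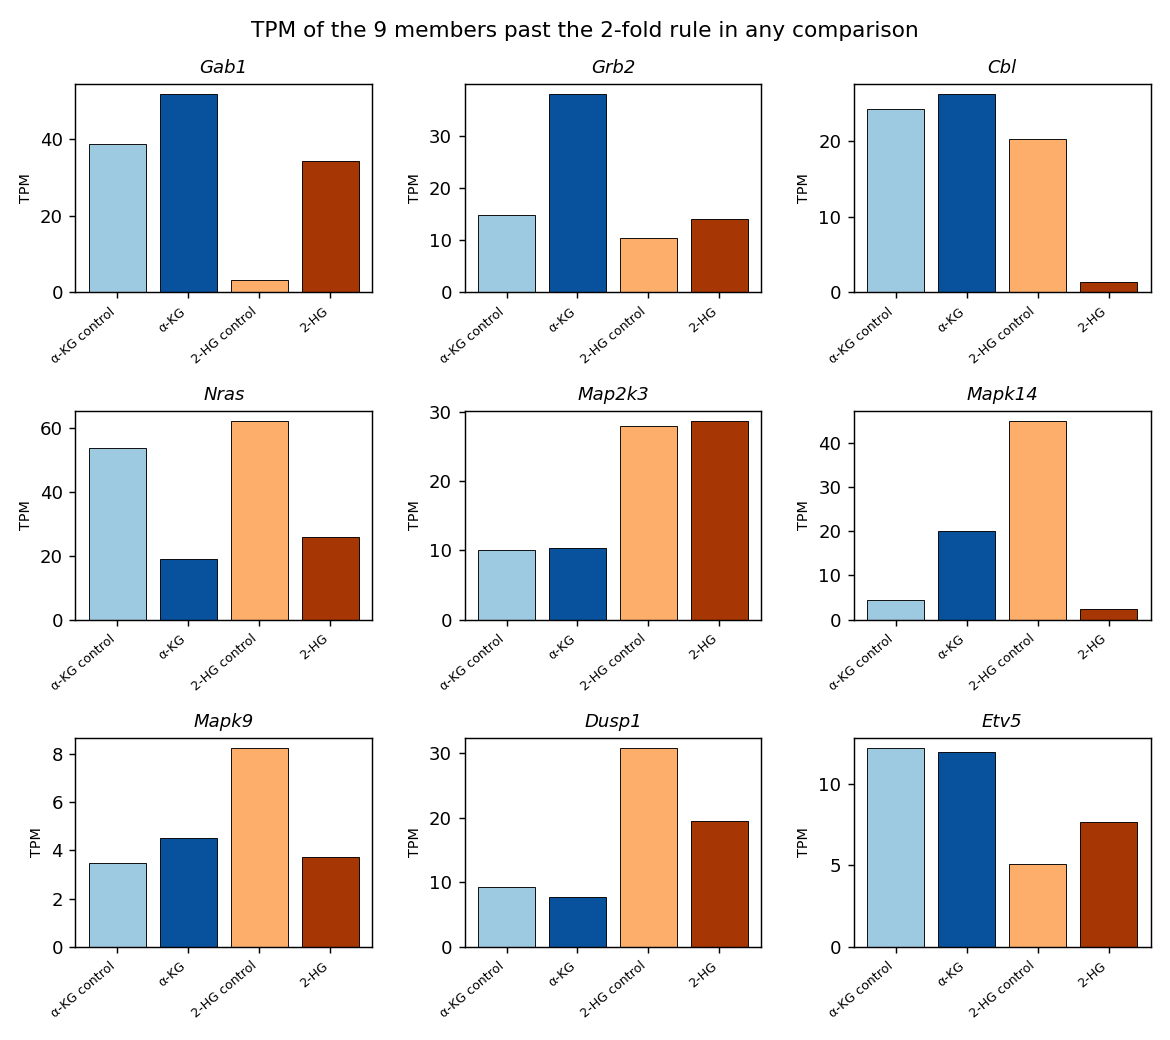
TPM in each library, as bars from 0, for the 9 members apart by the 2-fold rule in any comparison; each bar is 1 library, so there are no error bars. Nras is lower in both treated libraries than in both controls, Gab1 is low in the 2-HG control alone, and Cbl is low in the 2-HG library alone.

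The ligand was scarce, and only the α-KG library reached 5 TPM. Fgf4, made by the epiblast, had 4.11 TPM in the α-KG control, 6.41 TPM with α-KG, 0.98 TPM in the 2-HG control and 2.48 TPM with 2-HG. Both libraries of the α-KG experiment lay above both of the 2-HG experiment, and in each experiment the treated library was the higher one. The log2(TPM + 1) difference was 0.54 with α-KG. Neither the 2-HG pair nor the pair of controls had a library at 5 TPM, so these comparisons were not measured for this gene. The 8 epiblast markers summed to 275 TPM in the α-KG control, 242 TPM with α-KG, 238 TPM in the 2-HG control and 194 TPM with 2-HG, and none was at 0. Prdm14, Sox2, Nanog, Tdgf1 and Esrrb were higher in both libraries of the α-KG experiment, while Gdf3, Klf2 and Pou5f1 were not. Of all genes at 5 TPM or more in at least 1 library, 20.3% were higher in the α-KG experiment in this way. Prdm14 lay between 0.88 and 2.93 TPM, and Esrrb was at 6.04 and 6.07 TPM against 3.07 and 5.34 TPM in the 2-HG experiment. In the same order of libraries, Sox2 was at 8.91, 9.18, 2.38 and 1.92 TPM and Gdf3 at 27.8, 17.4, 45.2 and 26.9 TPM. The part of the epiblast markers in the Fgf4 values was not tested.

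Fgfr2 and Fgfr1 carried nearly all receptor transcripts. Fgfr2, a receptor of the trophectoderm, had 21.7, 28.1, 23.8 and 24.2 TPM in the α-KG control, α-KG, 2-HG control and 2-HG libraries. This order is kept below wherever 4 values follow each other. The Fgfr2 values lie close together, with differences of 0.36 with α-KG and 0.02 with 2-HG. The annotation has exons of Fgfr2 overlapping those of Ctbp2 on the same strand, and Ctbp2 was at 46.9, 64.4, 15.4 and 10.4 TPM. Fgfr1, a receptor of the inner cell mass, was at 13.0, 11.8, 17.6 and 20.9 TPM. Both libraries of the 2-HG experiment were above both of the α-KG experiment. Fgfr3 and Fgfr4 stayed under 2 TPM in every library. Fgfr2 made up between 51.8% and 68.8% of the summed receptor TPM. None of the 3 ligand and receptor genes measured with α-KG, nor of the 2 measured with 2-HG, was apart by the 2-fold rule.

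Among the adaptors, Gab1 and Cbl each had a single library far below the others. Gab1 encodes a docking protein that binds GRB2 and SHP2 (ENSMUSG00000031714.9, GRCm38 chromosome 8, 80764438 to 80880519). It had 38.7 TPM in the α-KG control, 52.0 TPM with α-KG, 3.18 TPM in the 2-HG control and 34.4 TPM with 2-HG. The 2-HG control stood alone, so the difference of 3.08 with 2-HG against its control has a counterpart of -3.25 between the controls. Set against the α-KG control, 2-HG differed by -0.17, of the opposite sign. A noncoding gene on the other strand, Gm31105, overlaps its exons and was at 1.34, 0, 0.85 and 1.08 TPM.

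Cbl encodes a ubiquitin ligase that marks active receptors for degradation (ENSMUSG00000034342.9, chromosome 9, 44142976 to 44234049). Its levels were 24.2, 26.3, 20.3 and 1.40 TPM, so the 2-HG library stood alone at the low end. The difference with 2-HG was -3.15, and it was 0.11 with α-KG and -0.24 between the controls. Over all 10420 genes, 4.16% had 1 library at least 2-fold below the other 3, and 0.681% at least 4-fold. Cbl and Gab1 were the members with such a gap, and both passed 4-fold.

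The other large difference of this group was that of Grb2, the adaptor that brings SOS to the receptor complex (chromosome 11, 115644045 to 115708597). It was at 14.8, 38.1, 10.4 and 14.1 TPM, with the α-KG library above the other 3 and a difference of 1.30 against its control. One library at least 2-fold above the other 3 was seen in 3.07% of all genes, and among members in Grb2 and Mapk14. Neither had a 4-fold gap of that kind, which 0.547% of all genes had. Grb2 was at least 2-fold higher with α-KG against either control. Frs2, the docking protein that sits on FGF receptors, was at 45.7, 54.1, 48.5 and 27.1 TPM, lowest with 2-HG at a difference of -0.81 that is under the rule. Sos1, an exchange factor for RAS, was at 15.4, 17.4, 15.1 and 23.2 TPM, and its paralog Sos2 at 7.13, 8.30, 6.49 and 6.75 TPM. Ptpn11, which encodes the phosphatase SHP2, ranged from 18.0 to 25.4 TPM, and the adaptor gene Shc1 from 18.8 to 23.7 TPM.

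The sequences before the start sites of Gab1 and Cbl are shown because these genes had the widest gap between 1 library and the rest. They are RefSeq promoter entries of GRCm38.p6, read 5′ to 3′ on the minus strand, from chr8:80880520-80880769 and chr9:44234050-44234296, with bases annotated as UTR left out. Capitals mark GC boxes, the letters GGGCGG or their reverse complement CCGCCC, and the leftmost 2 in Cbl share 1 base.

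Gab1: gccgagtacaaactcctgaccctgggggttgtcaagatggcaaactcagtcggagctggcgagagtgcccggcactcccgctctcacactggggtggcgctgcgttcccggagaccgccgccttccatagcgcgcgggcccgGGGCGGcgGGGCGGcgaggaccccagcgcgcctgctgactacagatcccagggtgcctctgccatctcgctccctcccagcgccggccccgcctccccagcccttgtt

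Cbl: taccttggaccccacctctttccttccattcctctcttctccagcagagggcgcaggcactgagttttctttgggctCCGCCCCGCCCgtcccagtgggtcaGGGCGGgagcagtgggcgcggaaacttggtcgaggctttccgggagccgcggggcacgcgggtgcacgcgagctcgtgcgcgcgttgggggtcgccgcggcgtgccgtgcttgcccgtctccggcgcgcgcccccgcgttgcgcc

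In the core chain, Nras was lower in both treated libraries than in both controls. Nras, a RAS GTPase gene (ENSMUSG00000027852.14, chromosome 3, 103058285 to 103067914), had 53.9 TPM in the α-KG control, 18.9 TPM with α-KG, 62.3 TPM in the 2-HG control and 25.8 TPM with 2-HG. The lower control was 2.04 times the higher treated library on the TPM + 1 scale. Differences were -1.46 with α-KG and -1.24 with 2-HG, against 0.21 between the controls. With the treatments pooled, 16.0% of all genes had both treated libraries below both controls, and 0.317% with a gap of at least 2-fold. Among 30 members, 2 had the first pattern, Nras and Shc1, and Nras had the wider gap. After median-of-ratios scaling or with a pseudocount of 5 the gap of Nras was narrower than 2-fold, though both single differences still passed the rule.

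Its paralog Hras had another pattern, at 38.5, 47.1, 40.1 and 29.3 TPM, highest with α-KG and lowest with 2-HG. Summed over both genes the level reached 92.4 TPM in the α-KG control, 66.0 TPM with α-KG, 102 TPM in the 2-HG control and 55.1 TPM with 2-HG. Nras supplied 58.3% of that sum in the α-KG control and 60.9% in the 2-HG control, and 28.6% with α-KG and 46.9% with 2-HG. The pseudogene Nras-ps2 was listed at 0 in all 4 libraries.

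The bases just before the start site of Nras are printed because Nras was the member that differed by at least 2-fold in the same direction with both compounds. They span chr3:103058187-103058284 of GRCm38.p6 on the plus strand and come from the RefSeq promoter entry, without bases annotated as UTR. Capitals mark 2 GC boxes that share 1 base.

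Nras: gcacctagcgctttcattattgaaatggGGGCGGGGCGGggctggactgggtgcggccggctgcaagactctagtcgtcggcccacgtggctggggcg

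Downstream of RAS, none of the RAF, MEK and ERK members was apart by the 2-fold rule in any comparison. Araf, a RAF kinase gene, was at 50.6, 59.1, 62.5 and 44.7 TPM. Braf was at 8.10, 7.63, 6.99 and 4.82 TPM, and in both genes the 2-HG library was the lowest. The exons of Braf overlap Ndufb2, on the other strand, at 138 to 186 TPM. Map2k1, which encodes MEK1, was at 49.6, 48.3, 44.8 and 31.9 TPM, and Map2k2, for MEK2, at 63.4, 80.3, 81.0 and 80.7 TPM. Mapk3, for ERK1, was low at 3.84, 4.07, 6.28 and 2.83 TPM. Rps6ka1, the ERK-activated kinase RSK1, was at 74.7, 68.2, 59.3 and 67.6 TPM.

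With 2-HG all 7 members of this chain measured were below their control, at a median of -0.47, in a comparison where 62.4% of all genes were below and the median of all genes was -0.12. The smallest of the 7 differences was -0.005, in Map2k2. The count became 6 of 7 with median-of-ratios scaling, which moved the median of all genes to 0.01 and that of the chain to -0.34. It was also 6 of 7 with overlapping genes summed and against the mean of both controls, and 5 of 6 against the α-KG control. Only Nras among the 7 was apart by the 2-fold rule, and Mapk3, at -0.93, joined it with a pseudocount of 0.1. With α-KG 3 of 6 were above and 3 below.

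**Figure D3:**
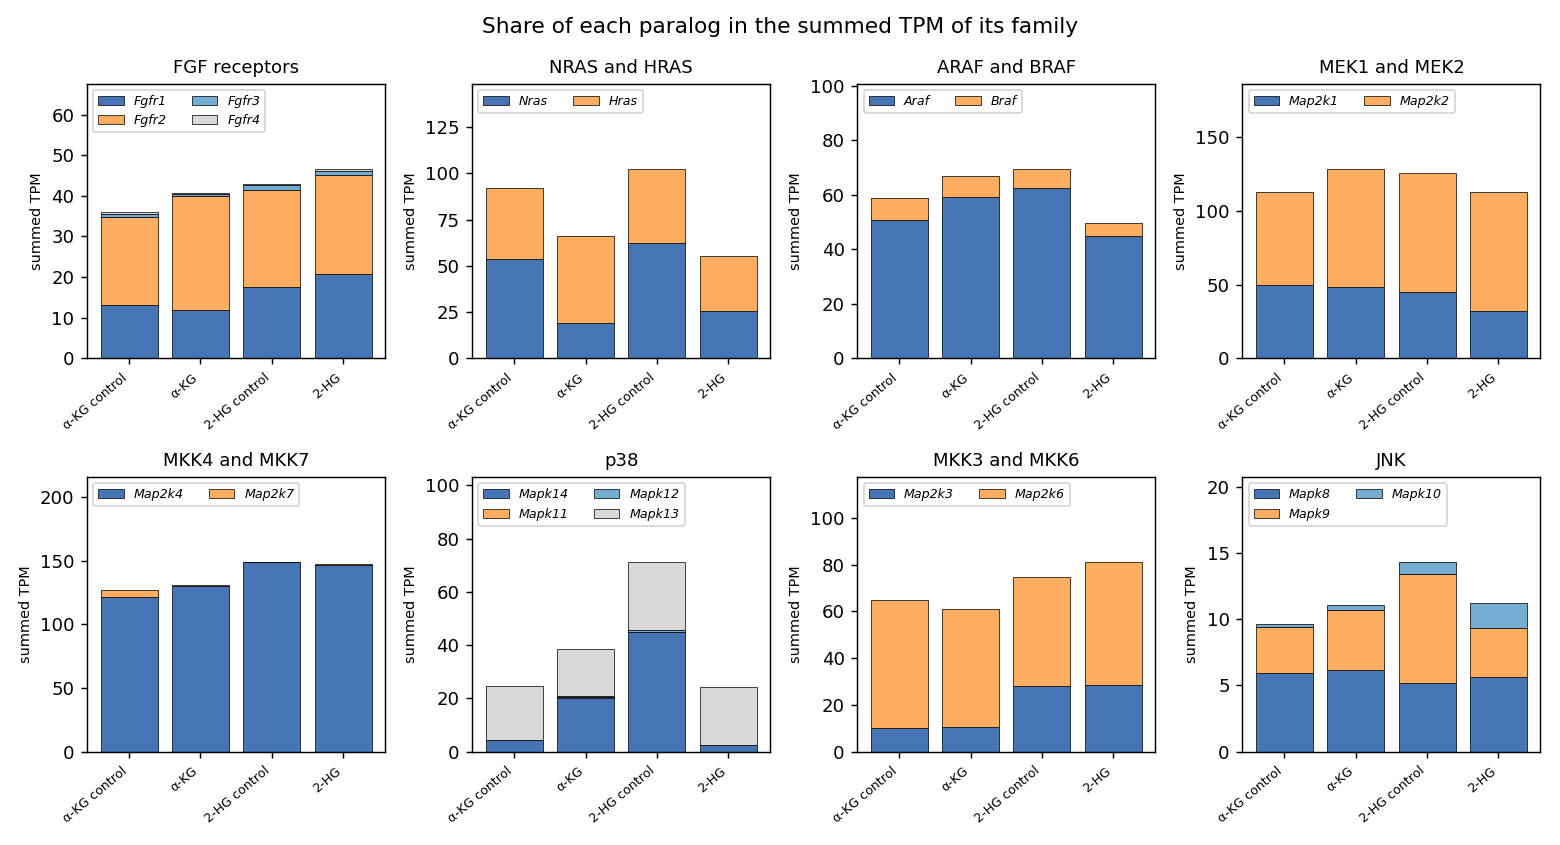
Summed TPM of 8 families in each library, stacked by paralog (bars from 0, 1 library per bar); Map2k7, Mapk10, Mapk11, Mapk12 and Mapk13 are added to the members. The Nras block shrinks in both treated libraries, Map2k4 fills nearly all of its bars with Map2k7, and Mapk14 fills 63.3% of the p38 bar in the 2-HG control and 9.86% with 2-HG.

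In the stress kinase branches, Mapk14 differed most and in opposite directions. Mapk14 encodes p38α (ENSMUSG00000053436.14, chromosome 17, 28691329 to 28748406). Its levels were 4.39 TPM in the α-KG control, 20.0 TPM with α-KG, 45.1 TPM in the 2-HG control and 2.40 TPM with 2-HG. The difference was 1.96 with α-KG and -3.76 with 2-HG, and the controls themselves differed by 3.09. Against the 2-HG control the α-KG library was lower, at -1.13. Set against the α-KG control, the 2-HG library was at -0.67, but neither of them reached 5 TPM, so that pair was not measured for this gene. Mapk13, another p38 gene that is no member, kept between 17.9 and 25.6 TPM. The p38 sum was 24.7, 38.8, 71.2 and 24.3 TPM.

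Before the Mapk14 start site lies the following sequence of the RefSeq entry, shown because this member had the largest difference with 2-HG. It covers chr17:28691092-28691328 of GRCm38.p6 on the plus strand, without bases annotated as UTR, and capitals mark a GC box on the minus strand.

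Mapk14: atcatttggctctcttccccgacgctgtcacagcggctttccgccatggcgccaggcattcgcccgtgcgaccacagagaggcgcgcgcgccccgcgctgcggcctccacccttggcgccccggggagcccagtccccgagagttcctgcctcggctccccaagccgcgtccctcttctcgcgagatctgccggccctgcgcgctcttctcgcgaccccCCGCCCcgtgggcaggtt

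Among kinases above p38 and JNK, the members Map2k3, Map2k4 and Map2k6 were not apart in either treated comparison. Map2k7, which is no member, was apart with α-KG. Its α-KG control stood alone at 5.38 TPM, with 0.84 TPM or less in the other libraries. Map2k3, for the p38 kinase MKK3, had 10.1 and 10.4 TPM in the α-KG experiment against 28.1 and 28.7 TPM in the 2-HG experiment. The gap between the experiments was 2.55-fold on the TPM + 1 scale, while each treated library was within 0.04 of its control. Of all genes 0.528% had both libraries of the 2-HG experiment at least 2-fold above both of the α-KG experiment, and Map2k3 was the 1 member of 30 that did. Map2k6, for MKK6, was at 54.9, 50.7, 46.6 and 52.3 TPM. Map2k4, for the JNK kinase MKK4, was at 122, 130, 149 and 147 TPM and made up 95.8% or more of its sum with Map2k7. Mapk8, for JNK1, was at 5.96, 6.15, 5.18 and 5.61 TPM. Mapk9, for JNK2, had 3.47, 4.52, 8.26 and 3.71 TPM. It was apart between the controls at 1.05 and nearly so with 2-HG at -0.97.

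Feedback inhibitors and targets gave no member apart in either treated comparison, among 6 measured in each. Dusp6, the phosphatase that acts on ERK, was at 19.9, 25.1, 17.2 and 8.93 TPM, lowest with 2-HG at a difference of -0.88. Dusp4, a nuclear MAPK phosphatase gene, was at 9.75, 15.3, 10.9 and 14.2 TPM, with both treated libraries above both controls. The pattern of both treated libraries above both controls was seen in 11.5% of all genes and in 3 of 30 members, Dusp4, Fgfr2 and Sos1. None of the 3 had a 2-fold gap, which 0.211% of all genes had. The gap of Fgfr2 was 1.02-fold on the TPM + 1 scale. With overlapping genes summed, Fgfr2 left this pattern and joined the members higher in both libraries of the α-KG experiment.

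Spry2, a Sprouty inhibitor gene, was at 27.8, 22.8, 15.8 and 16.5 TPM, and Etv5, an ETS factor gene that responds to FGF, at 12.2, 11.9, 5.10 and 7.68 TPM. In both genes the α-KG experiment lay above the 2-HG experiment, and Etv5 differed by -1.11 between the controls. Dusp1, a phosphatase gene induced by stress and growth factors, went the other way, at 9.28, 7.75, 30.8 and 19.5 TPM, with 1.63 between the controls. Its exons overlap those of Ergic1 on the other strand, which was at 34.8, 25.1, 55.3 and 63.4 TPM, and with both genes summed the control difference was 0.95. Spred2 was at 13.0, 11.0, 9.20 and 10.7 TPM. Spred1 ranged from 0.74 to 1.57 TPM, and Spry4, Etv4 and Egr1, all induced by ERK in other cells, stayed under 1 TPM.

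The Dusp1 entry is shown because it held, next to GC boxes, the cyclic AMP response element (CRE) that was searched for. It covers chr17:26508520-26508722 of GRCm38.p6 on the minus strand, without bases annotated as UTR, and capitals mark the CRE letters TGACGTCA and 2 GC boxes, of which 1 touches the CRE without sharing a base.

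Dusp1: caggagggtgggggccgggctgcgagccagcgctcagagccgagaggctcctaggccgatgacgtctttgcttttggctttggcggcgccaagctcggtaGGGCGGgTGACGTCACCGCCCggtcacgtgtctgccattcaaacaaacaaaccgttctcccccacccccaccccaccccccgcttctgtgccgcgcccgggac

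RefSeq promoter entries, from 250 bases before to 50 after a start site, were found for 30 of the 36 members, 40 entries in all. The GC box was in 25 of these 40 and in 35.7% of all 32851 entries, counted on both strands. The ETS letters CCGGAAGT were in 2 member entries, of Frs2 and Shc1, and in 3.89% of all entries. The CRE was in those of Braf, Dusp1 and Ptpn11 and in 1.79% of all. The AP-1 letters TGACTCA were in that of Shc1 and in 5.20% of all, and the letters of the serum response element were in no member entry and in 0.0639% of all. A match is a description of letters and not of a bound site.

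Across both experiments, members were ordered by experiment more often than by treatment, as were all genes. Both treated libraries lay below both controls in 2 of 30 members, beside 16.0% of all genes. They lay above both controls in 3 of 30, beside 11.5%. In 13 of 30 members both libraries of the α-KG experiment lay above both of the 2-HG experiment, beside 20.3% of all genes. In 5 of 30 both lay below, also beside 20.3%. Of the other pathway genes given below, 7 of 37 had the first of these orders and 3 of 37 the second. The 13 include the ligand Fgf4, the adaptors Grb2, Gab1, Cbl, Sos2 and Ptpn11, the kinases Braf, Map2k1 and Mapk8, and the feedback or target genes Dusp6, Spry2, Spred2 and Etv5. Of these 13, Fgf4 reached 5 TPM only in the α-KG library, on the side counted as higher. With a minimum of 10 TPM, 9 of 24 members had this order, beside 20.5% of all genes. Fgf4, Sos2, Braf and Mapk8 were then not measured. The 5 with the opposite order were Fgfr1, Map2k2, Map2k3, Map2k4 and Dusp1. Most of these gaps were small on the TPM + 1 scale. Among the 13, Etv5, Fgf4 and Spry2 had gaps of 1.49-fold, 1.47-fold and 1.36-fold. The remaining gaps ran from 1.02-fold for Spred2 to 1.21-fold for Ptpn11. They include Gab1, Cbl and Grb2, each with a single library at least 2-fold from the rest, at 1.12-fold, 1.18-fold and 1.05-fold. The narrowest of the 5 was 1.005-fold for Map2k2. No member was higher in the α-KG experiment by a 2-fold gap, which 0.403% of all genes were. Experiment and any unlabelled difference in culture, embryos or library preparation cannot be told apart.

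**Figure D4:**
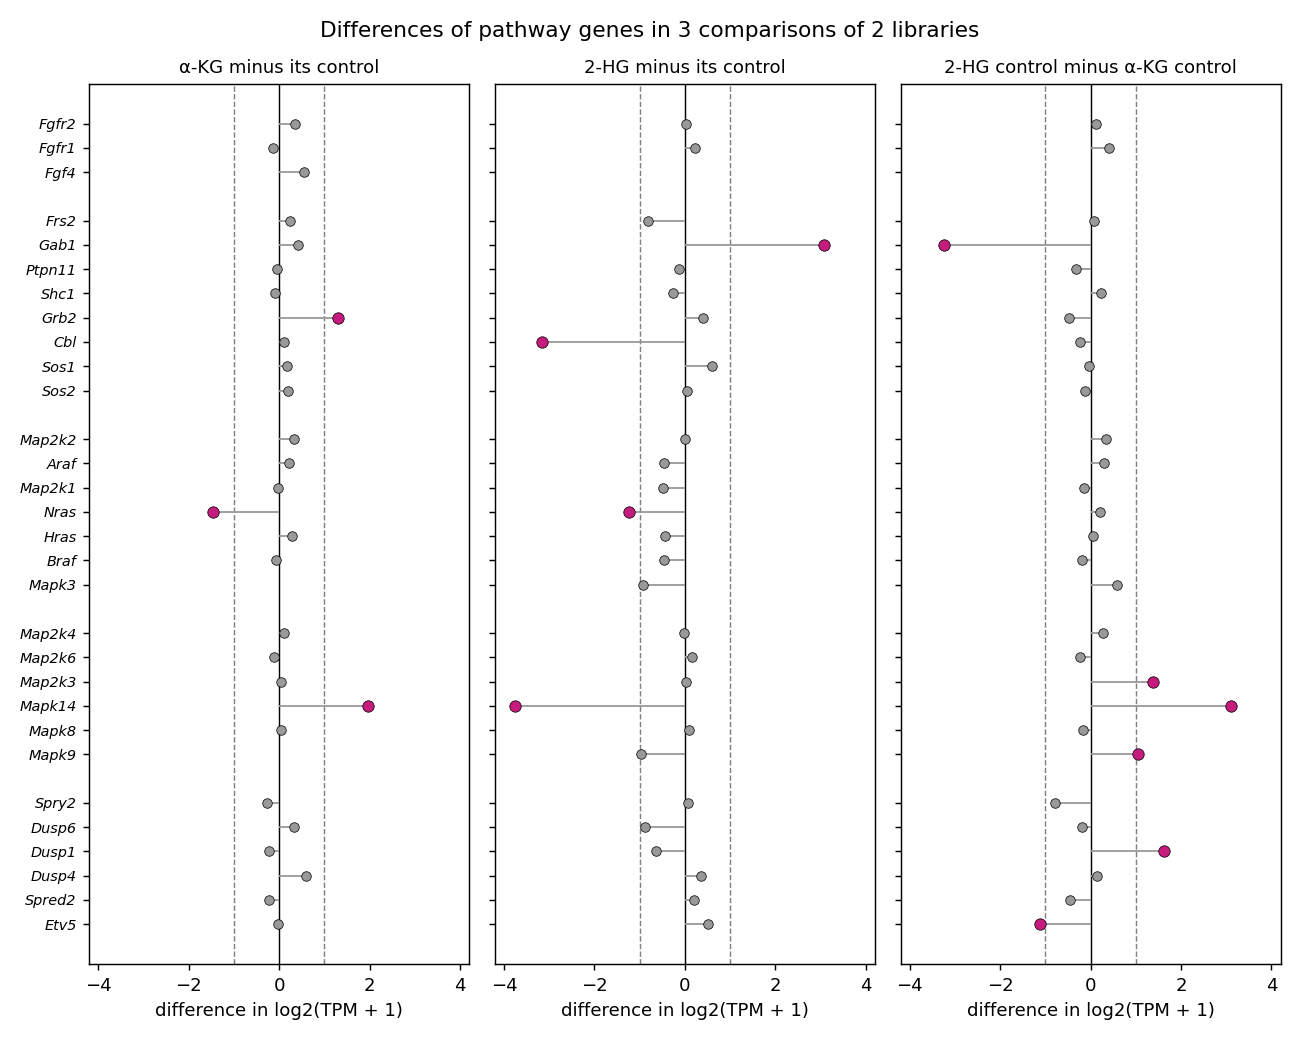
Difference in log2(TPM + 1) for members with at least 5 TPM in 1 of the 2 libraries, for α-KG, 2-HG and the controls; dashed lines mark -1 and 1, and coloured points are past them. Nras lies past -1 in both treated panels and near 0 between the controls, whereas Gab1 and Mapk14 lie past the lines in the control panel as well.

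Other genes of the pathway were taken from a list, of which 73 are considered here, 72 were found and 37 reached 5 TPM in at least 1 library. With α-KG 1 of 32 measured was apart and none was higher. It was Map2k7, for the JNK kinase MKK7, at 5.38 TPM in the α-KG control, 0.80 TPM with α-KG, 0.07 TPM in the 2-HG control and 0.84 TPM with 2-HG. With 2-HG 2 of 34 were apart, both lower. Ier3, an early response gene, was at 1.90, 1.11 and 9.97 TPM and listed at 0 with 2-HG. Hs6st1, which sulfates the heparan chains that FGF needs to bind its receptors, was at 12.5, 12.7, 21.9 and 1.48 TPM. Between the controls 2 of 35 were apart, Ier3 at 1.92 and Map2k7 at -2.58. The list medians were 0.09 with α-KG, -0.23 with 2-HG and 0.25 between the controls. Sdc4, a heparan sulfate carrier, was the most abundant, at 471, 450, 472 and 400 TPM, and was added here after its values were seen. FGF ligands other than Fgf4 on the list (Fgf1, Fgf2, Fgf3, Fgf5, Fgf7, Fgf8, Fgf9 and Fgf10) stayed under 5 TPM in every library.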

How the data were processed

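RNA of mouse blastocysts was measured in 4 libraries, 1 per group, made from 1 ng of pre-amplified cDNA per the labels' protocols. The authors deposited TPM per gene for 53715 genes, and the submitters' processing notes name Trimmomatic, HISAT2, Picard, StringTie and DESeq2 with the builds mm10 and GRCm38.p6, without versions, roles or order. Columns summed to between 999891 and 999935 TPM. Read counts were not used here, so depth is unknown and no counting interval is given. A second worksheet of few genes, with columns of libraries that the labels do not describe, was not used here. It has 6 such columns.

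Members were matched by name, and 53620 gene IDs matched GENCODE M21 of GRCm38, which gave coordinates (1-based) and overlaps. Differences are of log2(TPM + 1), for genes with at least 5 TPM in 1 of 2 libraries, and a difference of at least 1 was called. Because of the pseudocount of 1, low genes show less difference than their TPM ratio. The calling step was tested on simulated data. Every member was to be described, in full where called, as were Rps6ka1 and the 2 largest called differences per direction among other pathway genes. From that list 3 genes were left out of its counts, medians and family sums and are not reported here. Members, lists and the patterns over 4 libraries were chosen with earlier results of these data known. Alternatives were other pseudocounts, minimums, scaling, controls, summing of overlapping genes and a 4-fold rule. Python 3.11.15 and pandas 2.3.3 were used.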

Additional observations from a re-analysis of the deposited data

Results flagged for a closer look

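Mapk14, for p38α, went in opposite directions with the compounds, at 1.96 with α-KG and -3.76 with 2-HG against their own controls on the log2(TPM + 1) scale. The difference between these values was not tested, since each group is 1 library. The controls differed by 3.09 in the same gene.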

How the results depend on the processing

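Of the counts of members apart by the 2-fold rule, that with α-KG was 3 and became 0 with a 4-fold rule, 8 against the 2-HG control and 5 against the mean of both controls. The count with 2-HG was 4 and ranged from 3 to 6 over its alternatives. Against the α-KG control that count was also 4, but of Cbl, Nras, Map2k3 and Dusp6. Between the controls it was 6, and 2 with a 4-fold rule. There it was 4 with a pseudocount of 5, where Mapk9 and Etv5 were no longer apart. With median-of-ratios scaling it was 5, without Mapk9. Against the 2-HG control Mapk14 with α-KG turned to -1.13, and against the mean of both controls to -0.29. Gab1 with 2-HG turned to -0.17 against the α-KG control. The cause of these changes was not tested, beyond the control levels given above. For patterns over the 4 libraries, whose alternatives were chosen after the data were seen, the count with both treated libraries lower by a 2-fold gap went from 1 to 0 with a pseudocount of 5 or median-of-ratios scaling. That with the 2-HG experiment higher by a 2-fold gap went from 1 to 2 with a pseudocount of 0.1 or median-of-ratios scaling, as Dusp1 joined Map2k3. Without a gap, both treated lower went from 2 to 1 with that scaling, and both treated higher from 3 to 5 with no minimum. With a pseudocount of 5, members with 1 library higher than the other 3 went from 2 to 1. The unknown depth of the libraries limits what low values can show. No paired analysis was possible because each group holds 1 library and the labels give no replicate numbers.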
